A study of Mus musculus with 46 samples.

Results

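The 29 sequences described here are candidate cis-regulatory elements (cCREs) of the mouse Tfcp2l1 locus that start in a window of chromosome 1 running from Inhbb past Ptpn4. The first, E170, starts at 119423501 and the last, E208, at 119849499 (mm10). They were chosen by their listed start, with E203 and E251 left out, and earlier results of these data were known when they were chosen. They are 29 of the 232 cCREs of this locus and of the 423 cCREs tested at the 3 loci of the study. The study asked how far enhancers and promoters of a locus are compatible when they are joined in one reporter. In this massively parallel reporter assay a fragment, or a pair of fragments, was placed upstream of a barcoded reporter, and the activity of a construct is its barcodes in RNA (cDNA samples) relative to its barcodes in the plasmid input (pDNA samples). All values come from E14TG2a cells, an established mouse embryonic stem cell line, grown in 2i+LIF medium without further treatment. They were transfected with the Tfcp2l1 Upstream library mix in 3 biological replicates and collected after 24 h, with 2 pDNA samples as input. The constructs were transient plasmids in a single cell line, so chromatin at the native locus was not measured. No RNA of the cells' own genes was measured either, so the cell type was not checked against markers.

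A cCRE is a stretch of DNA with features of an enhancer, a sequence that binds transcription factors and raises transcription from a promoter at some distance. Enhancers are often described as acting in both orientations, and many also start some transcription themselves. Tfcp2l1, after which the locus is named, encodes a transcription factor of the pluripotency network in naive embryonic stem cells. The interval of the 29 cCREs begins beside Inhbb, which encodes the beta B subunit of inhibins and activins. It runs through Ralb, a small GTPase, Tmem185b, a transmembrane protein, the RNA gene 3830432H09Rik, Epb41l5, a FERM domain protein of cell junctions, and Ptpn4, a protein tyrosine phosphatase. It ends beyond Ptpn4.

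Of the 29 cCREs, E173 was the only one with reference sequence in the promoter sequences used here, because it spans the start sites of a pair of RNA genes, Gm33575 and Gm33490. Both parts are shown as the only member sequence at hand, and no link between them and the activity of E173 was tested. The first covers 136 bases at chr1:119443792-119443927 and the second 148 bases at chr1:119444095-119444242. Both are on the plus strand from RefSeq (GRCm38.p6, the mm10 assembly), with CpG dinucleotides in capitals.

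E173, Gm33575 side: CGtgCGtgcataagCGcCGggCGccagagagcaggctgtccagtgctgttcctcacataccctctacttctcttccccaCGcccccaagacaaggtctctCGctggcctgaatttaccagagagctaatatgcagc

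E173, Gm33490 side: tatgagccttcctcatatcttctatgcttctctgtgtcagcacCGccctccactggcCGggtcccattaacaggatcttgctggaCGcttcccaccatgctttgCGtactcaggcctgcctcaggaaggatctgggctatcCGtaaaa

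Of the 6 promoter fragments in the interval, P017 to P020 contain a RefSeq promoter window, and the 250 bases before each gene's start are shown as the sequences that the members were joined to in the interval. They lie at chr1:119422249-119422498 (Inhbb, minus strand), chr1:119504783-119505032 (Ralb, minus strand), chr1:119525904-119526153 (Tmem185b, plus strand) and chr1:119536166-119536415 (3830432H09Rik, minus strand). Each is written along its gene's strand, with CpG dinucleotides in capitals.

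Inhbb, within P017: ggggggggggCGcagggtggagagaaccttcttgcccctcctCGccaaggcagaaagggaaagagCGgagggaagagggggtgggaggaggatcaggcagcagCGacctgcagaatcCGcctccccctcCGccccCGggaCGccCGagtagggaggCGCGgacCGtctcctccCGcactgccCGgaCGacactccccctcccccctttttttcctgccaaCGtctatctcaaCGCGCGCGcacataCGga

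Ralb, within P018: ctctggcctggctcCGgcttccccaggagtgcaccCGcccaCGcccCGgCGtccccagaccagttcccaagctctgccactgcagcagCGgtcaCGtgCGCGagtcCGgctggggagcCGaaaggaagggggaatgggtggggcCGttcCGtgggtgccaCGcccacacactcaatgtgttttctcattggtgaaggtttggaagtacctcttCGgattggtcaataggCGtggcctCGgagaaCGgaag

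Tmem185b, within P019: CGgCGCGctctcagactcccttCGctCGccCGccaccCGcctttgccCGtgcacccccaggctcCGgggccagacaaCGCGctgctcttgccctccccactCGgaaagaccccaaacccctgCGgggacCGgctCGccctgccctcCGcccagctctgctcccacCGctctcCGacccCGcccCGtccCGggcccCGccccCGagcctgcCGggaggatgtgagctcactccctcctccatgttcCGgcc

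3830432H09Rik, within P020: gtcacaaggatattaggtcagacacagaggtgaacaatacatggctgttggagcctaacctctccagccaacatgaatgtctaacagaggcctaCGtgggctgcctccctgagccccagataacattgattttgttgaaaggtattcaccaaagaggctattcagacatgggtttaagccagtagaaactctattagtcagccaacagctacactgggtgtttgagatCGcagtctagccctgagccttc

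The Inhbb, Ralb and Tmem185b windows held 21, 18 and 25 CpG, and the 3830432H09Rik window held 2, against a median of 6 over 32544 promoter windows of 250 bases. The 6 printed sequences were searched on both strands for 14 short motifs. The motifs were ATGCAAAT (octamer), CCATTGTT (SOX2), TCAAGGTCA (ESRRB), GGGNGTGGC (KLF4), TTCCNGGAA (STAT3), CAAACCAG (TFCP2L1), TGACGTCA (CREB), TGCGCATGC (NRF1), AAGATGGCG (YY1) and AGGGGGCGC (CTCF). Shorter ones were the AP-1 site TGANTCA, the USF site CACGTG, the CCAAT box AGCCAAT of NF-Y and the GATA site AGATAAG. There were 2 matches, both in the Ralb window: GGGNGTGGC, which 5.13% of all windows hold, and CACGTG, which 6.03% hold.

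Most members gave little reporter signal on their own, and 5 stood out: E172, E185, E188, E193 and E205. The alone activity was measured for 26 members, 21 of them in both orientations, which makes 47 oriented fragments. An empty vector of the single-fragment library gave 0.161, 0.186 and 0.190 in the 3 replicates. Of the 47 oriented members, 14 lay above the empty vector in every replicate (29.8%), against 129 of 420 oriented cCREs of the whole locus (30.7%). Another 33 lay below it in every replicate, against 265 of the 420 oriented cCREs (63.1%). The 5 named members were those above it in both orientations and every replicate, and they are called the active members below, a class set from these values and used only to describe. At the whole locus 39 of 196 cCREs met the same rule.

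E188, which lies between genes at chr1:119537708-119538158, 1543 bp from 3830432H09Rik, was the member with the highest activity alone. In plus orientation it gave 1.57, 1.70 and 1.52, and in minus orientation 1.35, 1.40 and 1.30. All 6 values lay above all values of the empty vector. E185 lies within Ralb at chr1:119497574-119498024. It gave 1.22, 0.614 and 0.649 in plus and 1.09, 0.827 and 1.03 in minus orientation, so its orientations overlapped. E193, within Epb41l5 at chr1:119582141-119582591, gave 1.18, 0.834 and 0.679 in plus and 0.676, 0.630 and 0.708 in minus orientation. E205, within Ptpn4 at chr1:119731162-119731612, gave 0.579, 0.872 and 0.625 in plus and 0.448, 0.515 and 0.578 in minus orientation. E172 lies within the RNA gene Gm33490 at chr1:119442836-119443286. It gave 0.638, 0.633 and 0.929 in plus but only 0.302, 0.266 and 0.347 in minus orientation, without overlap.

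Another 4 members exceeded the empty vector in one orientation only. E187, between Ralb and Tmem185b at chr1:119519304-119519754, gave 0.282, 0.340 and 0.306 in minus and 0.0367, 0.0548 and 0.0371 in plus orientation, a 7.32-fold difference. E170, 1253 bp from Inhbb at chr1:119423501-119423951, gave 0.252, 0.267 and 0.267 in minus and 0.0422, 0.0983 and 0.0647 in plus orientation. E189, between 3830432H09Rik and Epb41l5 at chr1:119540321-119540771, was the opposite, with 0.193, 0.255 and 0.244 in plus and 0.0431, 0.0744 and 0.0619 in minus orientation. E173 gave 0.174, 0.225 and 0.670 in plus orientation, where the value of replicate 3 stood far above the others, and 0.0866, 0.0796 and 0.0673 in minus orientation. The replicates of the 2 orientations did not overlap for 10 of 21 members, against 59.5% of the 195 cCREs that could be compared.

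Against the median cCRE alone in the same replicate, 15 of 47 oriented members were called higher (limma on log2 activity, BH-adjusted p under 0.05), where 40.3% of all 419 oriented cCREs were. Another 21 were called lower, where the share over all was 35.3%. E188 in plus orientation lay 4.07 ± 0.13 (log2, SE; adjusted p = 0.000128) above that median, higher in 3 of 3 replicates. E191 in minus orientation, within Epb41l5, lay lowest among the members with a narrow error, at -1.43 ± 0.18 (adjusted p = 0.00384). Its activities were 0.0225, 0.0444 and 0.0440. E201 and E199 in plus orientation had lower means, but their replicates ran from 0.00291 to 0.0734 (adjusted p = 0.0467) and from 0.00364 to 0.0535 (adjusted p = 0.0549). E174, E175 and E202 had no value alone.

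In front of promoters the same members stood out. The boost index of a construct is log2 of its activity over the median construct of any cCRE with the same promoter in the same orientation, here averaged over the 3 replicates. Promoter constructs were listed for 20 members, 545 in all, and 470 of these were above 0 in every replicate. Replicate 1 held 58 zeros among them, and replicates 2 and 3 held 15 and 16. A mean boost index could be tested for the 17 members measured with at least 3 promoters. It was called above 0 for 4 of them, where 27.8% of all 169 cCREs were, and below 0 for 9, where 44.4% of all were. The median over the 17 members was -0.42, and over the 169 cCREs -0.19.

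E185 had the highest mean boost index of the tested members, at 3.08, 2.46 and 2.61 in the 3 replicates (2.72 ± 0.32, SD, n = 3; adjusted p = 1.06e-06). This placed it at rank 8 of the 169 cCREs. It rests on 31 constructs with 20 promoters, all with E185 in minus orientation. E188 followed with 2.78, 2.54 and 2.40 (2.57 ± 0.19; adjusted p = 6.92e-07) over 52 constructs with 18 promoters, at rank 10. The replicates of E185 and E188 overlapped, and the order of the pair is not resolved. E205 had 1.30, 1.38 and 1.06 (1.25 ± 0.16; adjusted p = 3.78e-05), also only in minus orientation, and E172 had 1.10, 1.19 and 1.46 (1.25 ± 0.19; adjusted p = 4.26e-05) over 9 constructs. E205 and E172 also overlapped, and both lay below every replicate of E185 and E188. E193 was measured with a single promoter construct, whose index was 4.56, 1.74 and 2.94.

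Next in order came E170, at -0.08, 0.04 and -0.07, and E187, at -0.26, 0.14 and -0.36, neither called (adjusted p = 0.767 and 0.298). E170 and E187 are the members that exceeded the empty vector in minus orientation only. The lowest mean was that of E191, at -0.98, -0.83 and -0.97 (-0.93 ± 0.08; adjusted p = 0.000146), at rank 159 of 169. E190, also within Epb41l5, had -0.25, -1.10 and -1.29 over 4 constructs, and E200, within Ptpn4, had -1.12, -0.85 and -0.65. E208, 11914 bp beyond Ptpn4 at chr1:119849499-119849949, had -1.01, -0.80 and -0.61. The replicates of E190, E200, E208 and E191 overlapped. The other 5 called below 0 were E189, E199, E186, E206 and E178, with means from -0.67 to -0.42. E206 and E178 were not called without replicate 1 or without replicate 3. Leaving out 1 replicate moved the mean of E206 between -0.22 and -0.87, and without constructs under 0.05 it was -0.10 (adjusted p = 0.293). In runs with 1 replicate left out, constructs that read 0 only in that replicate came back in. Over the 17 tested members the mean boost index and the log2 activity alone correlated with r = 0.96, and over 168 cCREs with r = 0.89. Both are descriptions, since the activity of a fragment alone and in pairs was measured in the same transfections.

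Single promoter constructs gave the same picture against the promoter fragment alone. Of 458 member constructs, 110 were called higher than the promoter alone, where 23.8% of all 4945 constructs were, and 111 lower, where 19.7% of all were. The active members accounted for 84 of the 110 higher calls and 1 of the 111 lower calls, over 114 constructs. The other members accounted for 26 higher and 110 lower calls over 344 constructs. The median log2 difference from the promoter alone was 2.34 for the active and -0.72 for the other members. Single fragments and pairs came from separate libraries, and the constructs without insert differed between them: a pair of empty inserts gave 0.0460, 0.0658 and 0.0654, below the single empty insert in every replicate. The part of this difference in the lower calls was not tested, and against the median construct of the same promoter 77 member constructs were called lower. Without replicate 2 or without replicate 3 the lower calls fell to 41 and 42. The share over all constructs was not taken under these alternatives, so these counts are not set against the locus.

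E185 raised nearly every promoter it was tested with. It was called higher for 29 of 30 constructs, and the exception was P022 in plus orientation, at the Ptpn4 end of the interval, with 9.49, 9.74 and 9.99 against 6.74, 7.28 and 7.93 for the promoter alone. With P011 in minus orientation, one of the Tfcp2l1 promoter fragments, it reached 1.43, 1.35 and 1.72, where the promoter alone gave 0.0591, 0.0579 and 0.0483. This was a log2 difference of 4.76 ± 0.18 (SE; adjusted p = 3.88e-05). With P031 in plus orientation, the promoter of C1ql2, a secreted C1q family protein, E185 gave 1.03, 0.733 and 1.27 against 0.0209, 0.0407 and 0.0634 alone.

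E188 was called higher for 40 of 51 constructs. Its largest effect was with P014 in plus orientation, a fragment whose nearest gene is Gli2, a transcription factor of Hedgehog signalling. E188 in minus orientation gave 2.52, 2.98 and 3.68 there against 0.0281, 0.0592 and 0.0773 alone, a log2 difference of 5.90 ± 0.41 (adjusted p = 0.000216). In plus orientation it gave 1.03, 1.31 and 1.13 with the same promoter. With P023 in minus orientation E188 in plus orientation gave 1.31, 0.927 and 0.849 against 0.00278, 0.0724 and 0.101, and this call (adjusted p = 0.0305) was lost with the replicate as a block (adjusted p = 0.0594). Its one lower call was in minus orientation with P010 in minus orientation, at 2.91, 3.60 and 3.73 (adjusted p = 0.0325).

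E205 was called higher for 12 of 24 constructs and lower for none. With P015 in plus orientation it gave 1.85, 1.07 and 1.45 against 0.0137, 0.0509 and 0.0418 alone (log2 difference of 5.53 ± 0.55; adjusted p = 0.000799). With the same promoter in minus orientation it gave 0.00714, 0.0530 and 0.00732 (adjusted p = 0.264), and the values with the 2 promoter orientations did not overlap. E172 was called higher for 2 of 8 constructs. With P013 in plus orientation, a Gli2 promoter fragment, it gave 1.08, 1.78 and 2.00, and with P024 in minus orientation, the promoter of Tmem177, 0.680, 0.740 and 0.541. With P033 in plus orientation, the promoter of the macrophage receptor gene Marco, E172 gave 0.0204, 0.0473 and 0.130, where E188 in minus orientation gave 1.31, 1.19 and 1.58.

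The active members had higher boost indices with weak than with strong promoters. Over promoters with an activity alone of at least 1, a limit chosen after the values were seen, the boost index of the active members had a median of 0.56 over 23 constructs and ran from -0.22 to 2.13. Over promoters under 1 it had a median of 2.91 over 91 constructs and ran from -1.98 to 5.35. For E188 the medians were 0.57 over 12 and 3.36 over 39 constructs, and for E185 1.46 over 5 and 3.15 over 25. For E205 they were 0.37 over 5 and 1.65 over 19 constructs. The other members had medians of -0.26 and -0.82 for the same promoter classes, and all cCREs together -0.01 and -0.14. No test was made of these classes.

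The 6 promoter fragments of the interval covered this range. P017, at Inhbb, was low alone in plus orientation, at 0.0138, 0.0376 and 0.0640, below the empty vector in every replicate. E185 in minus orientation raised it to 1.35, 0.836 and 0.590 (log2 difference of 4.76 ± 0.63; adjusted p = 0.00245), from 74951 bp away in the genome. E188 in plus orientation raised it to 0.789, 0.760 and 0.994 (4.71 ± 0.57; adjusted p = 0.00171). P018, at Ralb, gave 5.68, 6.57 and 7.43 alone in plus orientation. E185, which lies in Ralb 6695 bp from it, raised this to 16.9, 16.7 and 17.7 (1.39 log2; adjusted p = 0.00153), and E188 in plus orientation gave 9.07, 7.12 and 7.67 (0.28 log2; adjusted p = 0.265). The values with E185 and E188 did not overlap on this promoter, and no test was run between them.

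P019, at Tmem185b, gave 7.94, 8.71 and 9.42 alone in plus orientation and had no value alone in minus orientation. E188 in plus orientation brought the plus fragment to 12.7, 14.6 and 12.2 (0.60 log2; adjusted p = 0.0284). On the minus fragment E172 in plus orientation gave 4.04, 3.26 and 4.19, above E185 with 1.86, 2.01 and 2.07 and E188 with 1.70, 1.61 and 1.98. P020, at 3830432H09Rik and 1168 bp from E188, gave 0.141, 0.0931 and 0.0879 alone in minus orientation. E188 in minus orientation raised it to 1.97, 1.47 and 1.19 (adjusted p = 0.000269), E185 to 1.59, 0.839 and 1.00 (adjusted p = 0.000656) and E205 to 0.713, 0.396 and 0.355 (adjusted p = 0.00496). The values with E188 and E185 overlapped and those with E205 lay below both. P021 in minus orientation, which spans an end of the Epb41l5 model, gave 0.290, 0.265 and 0.264 alone and 3.12, 3.06 and 3.05 with E185 (adjusted p = 4.15e-05). P022 in plus orientation, which spans an end of the Ptpn4 model, gave 6.74, 7.28 and 7.93 alone, and its boost index over 25 constructs of 16 members had a median of 0.01 and a highest value of 0.62.

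Whether a member worked differently on promoters of its own interval was tested with 16 members. The mean boost index was called higher with interval promoters than with others for 2, where 8.43% of all 166 cCREs were, and lower for 3, where 16.3% of all were. E188 averaged 1.87 with interval promoters and 2.89 with others, a difference of -1.29, -0.84 and -0.91 in the replicates (adjusted p = 0.0104). E185 averaged 2.30 and 2.89 (adjusted p = 0.0434), and E206 -0.94 and -0.35 (adjusted p = 0.0418). E208 averaged -0.36 and -0.96 (adjusted p = 0.0366), and E199 0.14 and -0.80, the former from a single construct (adjusted p = 0.0144). The interval promoters were stronger: 40.0% of the interval constructs of E188 and 16.7% of its others had a promoter of at least 1 alone, and for E185 these shares were 37.5% and 9.09%. The part of promoter strength in the difference was not tested. None of the 16 members was called without replicate 3. The calls of E185, E206 and E208 were also lost without replicate 1 and without replicate 2, that of E208 with the pseudocount and that of E206 with medians and with the pseudocount. With constructs under 0.05 left out the difference of E188 was -0.32 (adjusted p = 0.0523) and that of E185 turned to 0.20. With medians that of E208 turned to -0.12.

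The lowest called promoter constructs belonged to members that are not active. E178, within Ralb, gave 0.00422, 0.0225 and 0.0199 in plus orientation with P020 in plus orientation, against 0.165, 0.164 and 0.190 for the promoter alone (log2 difference of -3.80 ± 0.67; adjusted p = 0.00707). E191 in minus orientation with P024 in minus orientation gave 0.0255, 0.0144 and 0.0204 against 0.167, 0.180 and 0.215 (-3.25 ± 0.26; adjusted p = 0.000338), the most even of these. E200 in plus orientation gave 0.0434, 0.00833 and 0.0295 with P013 in plus orientation and 0.00690, 0.0105 and 0.0394 in minus orientation of that promoter (adjusted p = 0.0096 and 0.017). E170 in minus orientation with P006 in plus orientation gave 0.0222, 0.100 and 0.0129 (adjusted p = 0.0246), and against the median construct of that promoter this call was lost, at -0.76 (adjusted p = 0.48). The other calls held against that baseline, at -2.55 (E178), -3.69 (E191), -2.67 and -2.63 (E200). Alone, P020 in plus and P024 in minus orientation overlapped the empty vector (0.161, 0.186 and 0.190). P013 in minus orientation lay below it, and P013 and P006 in plus orientation above it. The part of the lower empty pair in these differences was not tested. Leaving out 1 replicate ended the calls of E178, E170 and both E200 constructs in at least 1 case, and that of E191 in none.

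Orientation could be compared with matched promoters, each orientation of a promoter counted singly, for 9 members. The plus orientation was called higher for 1, where 27.5% of all 91 cCREs were, and lower for 3, where 16.5% of all were. E188 was lower in plus than in minus orientation, with differences of -0.58, -0.62 and -0.65 over 21 oriented promoters (log2; adjusted p = 0.0146), although alone its plus orientation was 1.18-fold higher and the replicates did not overlap. E200 differed by -0.77, -2.07 and -0.93 over 3 oriented promoters (adjusted p = 0.0261) and E186, within Ralb, by -0.51, -0.34 and -0.33 over 25 oriented promoters (adjusted p = 0.0476). E191 was higher in plus orientation by 0.66, 0.28 and 0.57 over 11 oriented promoters (adjusted p = 0.0359). E170 and E189, which differed 4.06-fold and 3.93-fold between orientations alone, had mean differences of 0.50 (adjusted p = 0.0644) and -0.05 (adjusted p = 0.794) with promoters. None of the 9 members was called without replicate 3. The calls of E186 and E191 were also lost without replicate 1, without replicate 2, with medians and with constructs under 0.05 left out, which gave -0.15 and 0.043. E200 fell to -0.37 without replicate 1 and -0.35 with medians, neither called, and turned to 0.034 with a pseudocount. The call of E188 was also lost without replicate 2. Runs without a replicate also hold constructs that read 0 only in that replicate, so their values are not means of the replicate values printed here.

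Pairs of cCREs gave the broadest view, with 7732 constructs that hold a member, 6717 of them above 0 in every replicate. With a member first, farther from the reporter, 1079 of 3710 constructs were called higher than the second cCRE alone, where 34% of all 39844 were, and 896 lower, where 17.4% of all were. With a member second, next to the reporter, 922 of 3233 were called higher than the first cCRE alone, where 35.3% of all 40071 were, and 1092 lower, where 25.2% of all were. The active members gave 818 higher and 16 lower calls over 930 constructs in the first position. The other members gave 261 higher and 880 lower calls over 2780. In the second position the active members gave 716 higher and 35 lower calls over 819 constructs, and the other members 206 and 1057 over 2414. Here too the single fragments came from a separate library, whose empty insert gave 0.179 against 0.0582 for the pair of empty inserts (geometric means). The part of this difference in the lower calls was not tested. Against the median construct with the same partner, 1094 constructs were called lower with a member first and 1142 with a member second. Among pairs with a geometric mean activity of at least 0.05 the lower calls of members fell to 492 in the first and 623 in the second position. This filter itself takes out low pairs, and shares over all pairs were not taken under these alternatives.

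Over all partners E188 and E185 had the highest geometric mean activity among members with at least 10 constructs in each position. E188 averaged 1.26 over 434 constructs as the first and 1.33 over 235 as the second cCRE. E185 averaged 1.22 over 265 and 1.14 over 396. E172 averaged 0.886 over 66 and 0.742 over 35, E205 0.579 over 167 and 0.663 over 143, and E193 0.405 over 5 and 0.391 over 11. The members that are not active, with the same minimum, lay between 0.0815 (E208) and 0.216 (E207) as first cCRE. Of the thinly measured members, E201 had 1 construct with a mean of 2.39 and E202 had 4 with 0.502, both as second cCRE.

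Of the 5 largest called increases with a member first, 4 were those of E188 and E185. E188 in minus orientation with E028 in minus orientation gave 5.39, 4.90 and 5.02, where E028 alone gave 0.0488, 0.0546 and 0.0876 (log2 difference of 6.37 ± 0.27; adjusted p = 3.25e-05). With E295 in plus orientation it gave 5.23, 3.85 and 4.25, and with E086 in plus orientation 5.172, 5.996 and 5.220. E185 in minus orientation with E019 in minus orientation gave 1.82, 1.64 and 1.53 against 0.0143, 0.0290 and 0.0329 for E019 alone (6.12 ± 0.35; adjusted p = 5.14e-05). These values of E188 exceeded the sum of both fragments alone by 3.11-fold to 3.80-fold, and that of E185 by 1.66-fold. The exception, and the largest increase of all, was E208 in plus orientation with E167 in minus orientation, at 4.41, 5.76 and 5.78, where E208 alone gave 0.0374, 0.0646 and 0.0615 and E167 alone 0.0341, 0.0397 and 0.0487.

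The largest called decreases were those of E200, E199 and E186. E200 in plus orientation with E281 in minus orientation gave 0.00297, 0.00663 and 0.00767, where E281 alone gave 0.501, 0.453 and 0.562 (log2 difference of -6.56 ± 0.39; adjusted p = 5.7e-05). E199 in plus orientation with E094 in minus orientation gave 0.0162, 0.00937 and 0.0183 against 0.534, 0.563 and 0.713 (-5.41 ± 0.31; adjusted p = 5.23e-05). E186 in minus orientation with E030 in plus orientation gave 0.00448, 0.0345 and 0.0425 against 0.572, 0.847 and 0.826 (adjusted p = 0.00319). The median difference of the members that are not active was -0.78 in this position.

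The position in a pair was compared for 17 members over the same oriented partners in both orders. The first position was called higher for 11, where 52.8% of all 163 cCREs were, and lower for 1, where 22.7% of all were. The exception was E173, the fragment over the Gm33575 and Gm33490 starts. The difference, first minus second, was -2.43, -1.29 and -1.32 over 10 matched constructs (-1.68 ± 0.28, SE; adjusted p = 0.0103), with means of -3.98 and -2.30 on the log2 scale, and this call held without each replicate in turn. Without constructs under 0.05 the difference was -0.90 (adjusted p = 0.0238). Over all its constructs, whose partners differ, E173 averaged -2.97 as first cCRE (31 constructs) and -2.81 as second (107 constructs) on the log2 scale. The largest called differences in the other direction were those of E180, E181, E207 and E170. E180, within Ralb, was higher first by 0.23, 1.01 and 0.84 over 5 matched constructs (adjusted p = 0.0333), a call lost with the pseudocount and without replicate 3 and turned to -0.10 without replicate 1. E181 was higher by 0.42, 0.79 and 0.55 over 21 (adjusted p = 0.00854), and this call held without each replicate. E207 was higher by 0.68, 0.34 and 0.58 over 10 (adjusted p = 0.0094), but by 0.16 with the pseudocount and 0.11 without replicate 1, neither called. E170 was higher by 0.70, 0.35 and 0.17 over 140 (adjusted p = 0.0478), and by 0.23 without replicate 1 (adjusted p = 0.0745). The other 7, E178, E185, E186, E189, E191, E205 and E208, had means from 0.18 to 0.39. E188, the member highest alone, differed by 0.05, -0.02 and 0.03 over 155 matched constructs, with a standard error of 0.05 (adjusted p = 0.74). Without replicate 3 the first position was called higher for 4 members, and the calls of E185 and E186 were among those lost. Here too, runs without a replicate hold further constructs, those that read 0 only in that replicate.

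Most pairs of active members exceeded the sum of both fragments alone, as measured in the single-fragment library. Of the 331 constructs of 2 different members, 10 joined active ones, from E185, E188 and E205. The highest was E188 in minus orientation followed by E185 in plus orientation, at 4.59, 4.65 and 4.39, which was 1.78, 2.31 and 2.25 times the sum of the fragments alone in the same replicate. E188 and E185 both in plus orientation gave 4.57, 4.58 and 3.82, or 1.64, 1.98 and 1.76 times the sum. E205 in minus orientation followed by E185 in plus orientation gave 3.42, 2.34 and 2.52, or 2.05, 2.07 and 2.05 times the sum. E205 in minus orientation followed by E188 in plus orientation gave 3.04, 4.17 and 4.11, or 1.503, 1.884 and 1.956 times the sum.

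Among the 10 constructs, only E188 in plus orientation was followed by E185 in both orientations, and the pair with E185 in minus orientation was lower. E188 in plus orientation followed by E185 in minus orientation gave 2.88, 2.48 and 2.64, at 1.08, 0.980 and 1.03 times the sum, and did not overlap with the pair that holds E185 in plus orientation. In the reverse order E185 in minus orientation followed by E188 gave 3.65, 3.65 and 3.84 (plus) and 3.18, 3.48 and 3.16 (minus). E185 in minus orientation followed by E205 in plus orientation gave 1.66, 1.36 and 2.14, at 0.993, 0.804 and 1.29 times the sum. E188 in minus orientation followed by E205 in plus orientation stayed below the sum, at 1.387, 1.499 and 0.912, while E188 in plus orientation followed by the same fragment gave 2.64, 2.90 and 3.23. In all, 7 of the 10 constructs lay above the sum in every replicate and 1 below it in every replicate. Over all 39759 cCRE pairs with both values, 19.1% lay above the sum in every replicate and 66.0% below it, and the median ratio was 0.457. For the constructs of E185, E172, E205 and E188 the median ratios were 1.08, 0.946, 0.877 and 0.763, with 44.4%, 38.6%, 36.5% and 22.0% above the sum in every replicate. In the same order, 37.8%, 35.6%, 46.5% and 55.9% lay below it in every replicate. For the 16 constructs of E193 the median was 0.328, with 0 above the sum and 87.5% below it in every replicate. For pairs without an active member the median was 0.306, with 8.48% above the sum and 79.3% below it in every replicate. All these ratios set a pair against single fragments of a separate library. The pair of empty inserts lay below the single empty insert in every replicate, and the part of this difference in the ratios was not tested.

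The highest activities of any member construct came with E017, a strong partner. E017 alone gave 14.9, 15.0 and 16.9 in plus and 31.3, 29.0 and 33.5 in minus orientation. E206, which overlaps Ptpn4 and Gm3851 at chr1:119787137-119787587, was low alone in plus orientation, at 0.0222, 0.0521 and 0.0434. Placed before E017 in plus orientation it gave 70.2, 73.4 and 79.4, or 4.75 times the sum of both alone, and was called higher than E017 alone (2.25 ± 0.18 log2, SE; adjusted p = 0.000159). With E017 in minus orientation it gave 45.1, 47.0 and 45.2 (0.55 log2; adjusted p = 0.0425). E178 and E170, both in plus orientation, gave 29.0, 31.0 and 33.6 and 30.4, 28.4 and 32.2 before E017 in plus orientation (adjusted p = 0.00525 and 0.00591). E206 lay above both without overlap. Before E017 in minus orientation the same fragments were not called, with differences of 0.49 for E178 (adjusted p = 0.069) and -0.15 for E170 (adjusted p = 0.559). There E186 in plus (0.04), E189 in minus (-0.06), E191 in minus (-0.05) and E208 in plus orientation (-0.08) were not called either.

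Members that were otherwise low gave single constructs with high activity. Among the members that are not active, 30 cCRE pairs and 2 promoter constructs were called higher than the second fragment by at least 4 on the log2 scale. In all, 2780 pairs with such a member first and 344 promoter constructs were tested. The limit was chosen after the values were seen. The share over all cCREs of the locus was not taken at this limit, so these counts are not set against the locus. For E208 with E167, above, the 244 other constructs of E208 in plus orientation had a median activity of 0.0544. E189 in minus orientation with E133 in plus orientation gave 3.42, 3.68 and 3.35, against a median of 0.0535 over 187 others. The other orientation of the member before the same fragment was measured for 12 of them. In every replicate, 6 of these 12 lay below the pair of empty inserts of the same library and 3 above it. E189 gave 3.07, 3.76 and 3.42 in plus but 0.0973, 0.0670 and 0.130 in minus orientation before E091. E191 gave 3.61, 3.52 and 3.66 in plus but 0.0169, 0.197 and 0.0385 in minus orientation before E148. E181, within Ralb, gave 3.00, 2.35 and 3.03 in minus but 0.0577, 0.0340 and 0.0585 in plus orientation before the Gli2 promoter fragment P013 in minus orientation. E206 in plus orientation gave 1.37, 1.71 and 1.45 before P014 in plus orientation (log2 difference of 4.90 ± 0.40; adjusted p = 0.000372), against a median of 0.157 over its 13 other promoter constructs. The 3 replicates used one plasmid pool, and the number of barcodes behind a construct was not analysed here.

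Neighbouring members are given side by side. E207 and E208 overlap by 67 bp at the end of the interval, and both were low alone. E207 gave 0.0873, 0.0885 and 0.0814 and E208 0.0374, 0.0646 and 0.0615 in plus orientation, without overlap. In minus orientation E207 gave 0.0617, 0.0713 and 0.0522 and E208 0.0310, 0.0598 and 0.0548, which overlapped. Their mean boost indices were -0.35, -0.64 and 0.28 (adjusted p = 0.243) and -1.01, -0.80 and -0.61 (adjusted p = 0.000574). Their mean activities over partners as first cCRE were 0.216 and 0.0815. These means rest on different partners, and the difference between the members was not tested. E172 and E173 lie 506 bp apart, and E173 in minus orientation gave 0.0866, 0.0796 and 0.0673 alone where E172 gave 0.302, 0.266 and 0.347. In plus orientation they overlapped, as given above. E185 and E186 lie 779 bp apart within Ralb. E186 gave 0.0512, 0.0802 and 0.0830 alone in minus orientation and had a mean boost index of -0.79, -0.42 and -0.37 over 59 constructs, where E185 had 2.72. Within Ralb, E177, E178, E179, E180, E181, E184 and E186 were all below the empty vector alone in each replicate and orientation measured, and E185 was above it in all.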

How the data were processed

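Barcodes of reporter RNA (3 cDNA samples) and of the plasmid input (2 pDNA samples) were measured for the Tfcp2l1 Upstream libraries, which were transfected apart from those of the other loci, per the labels' protocols. The deposited activity of a construct is a linear ratio of cDNA to pDNA in each replicate. The deposited boost index is a log2 value, and log2 of the geometric mean over the median for the same oriented promoter equalled it for all 5065 finite values within 0.001. Bowtie2 and mm10 are named in the submitters' processing notes. Barcode counting, the scale of an activity of 1 and the depth per construct are not given in the sources used here, so no interval or floor for depth is given. Another 15 columns with values of single replicates, which repeat these or belong to another library, were not used.

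Boost indices were recomputed per replicate and averaged. Constructs that read 0 in any replicate were dropped, which removed 13.8% of promoter constructs and 13.1% of cCRE pairs with a member. With a replicate left out, only zeros in the replicates kept were dropped, so the set of constructs changed as well. Pairs were tested with limma 3.58.1 (R 4.3.3; lmFit and eBayes) on log2 activity, 3 values of the combination against 3 of the single fragment. Means per cCRE, over at least 3 partners, were tested as replicate means against 0. Benjamini-Hochberg adjustment ran over all rows of the Tfcp2l1 table, with calls at 0.05. The tested log2 differences set constructs of the same transfections against each other, so same-numbered values share a sample. The deviations of a construct and its promoter alone correlated with r = 0.22, 0.21 and 0.09 in replicates 1 to 3. Fits with the replicate as a block are alternatives. P-values measure the spread between transfections of one plasmid pool. Only the limma fits were run on simulated data, with independent normal noise and without zeros. Plus and minus are orientations as the table lists them, and pairs are named first fragment, second fragment.

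Named were the 6 highest and 4 lowest members by mean boost index, the 5 highest alone, at most 5 members, by size, called for each of orientation, position and interval promoters, overlapping members, the 8 highest and 5 lowest called promoter pairs and the 5 highest and 3 lowest called cCRE pairs with a member first. Other constructs were chosen after their values were seen. Members and lists were chosen with earlier results of these data known. Alternatives were a pseudocount of 0.01 that keeps zeros, a minimum activity of 0.05, each replicate left out, the replicate block, the median construct or the promoter alone as baseline and medians over partners. Scripts ran in Python 3.11.15 with pandas 2.3.3 and numpy 2.4.6.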

Additional observations from a re-analysis of the deposited data

How the results depend on the processing

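Of the counts of members called, the higher calls of promoter constructs and of both sets of cCRE pairs, and the calls of mean boost index and of activity alone, stayed within 1.5 times under each alternative run. The replicate block gave 105 higher and 98 lower promoter constructs, 1051 and 875 cCRE pairs with a member first and 916 and 1131 with a member second, and changed no count by over 1.5 times. Lower promoter calls ran from 41 to 97 with 1 replicate left out, and lower calls of first members from 482 to 852. Shares over all cCREs of the locus were not taken under the alternatives. With a minimum activity of 0.05 lower calls of first and second members fell to 492 and 623, where fewer constructs were tested. Calls for interval promoters were the least stable: with 1 replicate left out 0 to 1 higher and 0 to 1 lower were left, and medians or the pseudocount left 1 higher. For orientation, leaving out 1 replicate gave 0 to 2 higher and 0 to 1 lower. Medians gave 0 higher and 1 lower, the minimum activity 2 higher and 1 lower and the pseudocount 2 higher. For position, leaving out 1 replicate gave 4 to 9 higher and 1 to 2 lower, and the pseudocount 3 lower. Direction turned for 6 values that were called on at least 1 side of the change: with the minimum activity, the mean boost index of E181 (0.52) and the interval difference of E185 (0.20); with medians, the interval difference of E208 (-0.12) and the position difference of E205 (-0.019); with the pseudocount, the orientation difference of E200 (0.034); and with 1 replicate left out, the position difference of E180 (from -0.10 to 0.62, turned without replicate 1). Sign also changed for values not called either way: the mean boost index of E187 with the minimum activity (0.080) and without replicate 1 (0.0015), and the activity alone of E176 in minus orientation with the minimum activity (-0.39) and of E178 in minus orientation without replicate 1 (0.025). With 1 replicate left out, constructs that read 0 only in that replicate came back, so the replicates and the constructs changed together. The cause of these changes was not tested.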
